A study of Mus musculus with 9 samples.

Results

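The respiratory chain genes described here were the protein-coding genes of the deposited count table named as subunits of the mitochondrial respiratory complexes. The rule used gene symbols and no measured value, but it was set with earlier results of these data known. It took genes beginning with Ndufa, Ndufb, Ndufc, Ndufs or Ndufv, the 4 Sdh subunit genes, and genes beginning with Uqcr, Cox4 to Cox8 or Atp5. It also took the cytochrome genes Cycs and Cyc1 and the protein-coding genes of the mitochondrial genome. This gave 112 members of 56748 genes in the table, 99 in the nuclear genome and 13 in the mitochondrial genome. The symbol rule also took in 8 assembly factors of complex I (Ndufaf1 to Ndufaf8), which help to build the complex but are not part of it, and Cox5b-ps, which its symbol names as a pseudogene but the table lists as protein-coding. Of the nuclear members 40 were assigned by name to complex I, 8 to complex I assembly, 4 to complex II, 9 to complex III, 1 to cytochrome c, 19 to complex IV and 18 to complex V. The mitochondrial genome held 7 genes for complex I, 1 for complex III, 3 for complex IV and 2 for complex V.

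The respiratory chain passes electrons from NADH through complex I, or from succinate through complex II, to ubiquinone, then through complex III and cytochrome c to complex IV, which reduces oxygen to water. Complexes I, III and IV pump protons across the inner mitochondrial membrane, and complex V, the ATP synthase, uses the returning protons to make ATP. All complexes except complex II are assembled from subunits of both genomes, and the mitochondrial genes are copied as long transcripts of either strand that are then cut into single RNAs. Cartilage has no blood vessels, and chondrocytes are known to live at low oxygen and to rely largely on glycolysis.

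All libraries came from chondrocytes of wild-type mice, released from knee joint cartilage with collagenase and grown in medium with serum. In 3 libraries the cells received interleukin-1β (IL-1β), an inflammatory cytokine, and recombinant SFRP5 (secreted frizzled-related protein 5), which is known to bind Wnt ligands outside the cell. In 3 libraries they received IL-1β alone, and 3 libraries were controls given neither protein. The labels give no dose, no length of treatment, no animal age and no group with SFRP5 alone. They do not say whether the libraries of a group came from separate animals or cultures, so a p-value here reflects the spread among 3 libraries whose differences could be technical.

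The total count per library was 15795985 to 20688963, and 15502 genes passed the filter on low counts. The chondrocyte markers Col2a1, Acan, Sox9, Col9a1, Col11a1, Matn1, Hapln1 and Comp were detected in all groups and summed to 27656 to 29020 CPM (counts scaled to a common library size) with IL-1β and SFRP5, 21990 to 23162 CPM with IL-1β and 107255 to 109605 CPM in controls. All 8 fell with IL-1β against controls, and their part in the results given here was not tested. Markers of 3 other cell types were low. The summed CPM of 6 macrophage markers was 13.7 to 17.0 with IL-1β and SFRP5, 17.5 to 17.8 with IL-1β and 11.0 to 11.8 in controls, that of 8 skeletal muscle markers was 2.00 to 3.25, 0.907 to 1.82 and 5.17 to 7.13 in the same order of groups, and that of 4 brown adipocyte markers was 0.455 to 0.707, 0.607 to 1.39 and 5.23 to 6.13. CPM are relative to library sizes corrected by trimmed mean of M-values (TMM) factors. A gene was called changed at an adjusted p under 0.05 in edgeR's quasi-likelihood test with Benjamini-Hochberg adjustment over all genes tested, which is the test behind every adjusted p given here. Changes are log2 fold changes ± standard error (SE).

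The comparison of IL-1β with control cells asked how the cytokine changed the respiratory chain transcripts. Most nuclear-encoded subunits were lower with IL-1β, by modest amounts, whereas the mitochondrially encoded genes moved in both directions. Of 93 nuclear members tested, 9 rose, 66 fell and 18 were not called, and 9 of those that fell did so at least 2-fold, against 1 of those that rose. The largest rise was that of Ndufa4l2, and the largest falls among well-detected subunits were those of Atp5g1, Ndufb4, Ndufb7, Ndufs5 and Sdhb. In all, 78.9% of genes tested were called in this comparison, 38.5% as higher and 40.4% as lower. Of 12 mitochondrial genes tested, 4 rose, 6 fell and 2 were not called, but 2 rose and 6 fell with upper-quartile scaling, and 2 rose and 7 fell with no scaling factors.

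Among the 105 tested members 85 were called, a share close to that of all genes, with 13 higher and 72 lower. The libraries of the 2 groups did not overlap in 82 of these members, against 80.0% of all genes tested. The median log2 change of the nuclear members was −0.38, with the middle of the distribution between −0.67 and −0.07, against −0.03 over all genes tested. The mitochondrial members had a median of −0.08. The choice of scaling moved the median of all genes by up to −0.24, with no scaling factors. Scaling shifts all genes alike, and with no factors the nuclear members' median was −0.62, against −0.28 over all genes. A change at least 2-fold downwards, which 21.2% of all genes showed, was seen in 12 of 105 members, so the members' changes were mostly small. Fewer cells of a type and less RNA per cell cannot be told apart in such bulk libraries.

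**Figure D1:**
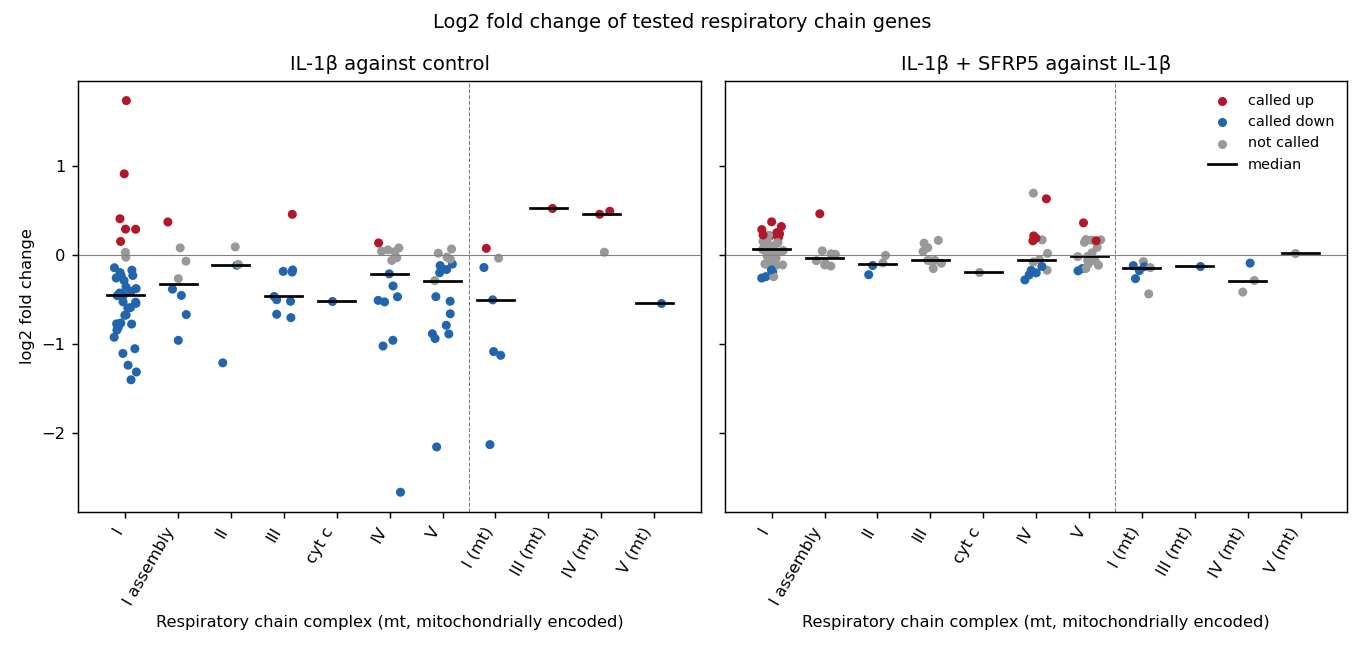
Log2 fold change of each tested respiratory chain gene by complex, for IL-1β against control (left) and IL-1β with SFRP5 against IL-1β (right). Each point is 1 gene, black lines are medians, colours show the call, and genes of the mitochondrial genome are right of the dashed line. With IL-1β the medians of nuclear complexes I and III were −0.45 and −0.46, and in the right panel most points lie near 0.

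Complex I, which oxidises NADH, had the most nuclear members tested and so the most that fell. The share that fell was 79.5%, against 88.9% in complex III, 70.6% in complex V, 53.3% in complex IV and 40.4% of all genes. Of 39 nuclear genes tested and assigned to complex I by name, 31 fell, 6 rose and 2 were not called, with a median log2 change of −0.45. They include Ndufa4, now counted with complex IV, and its relative Ndufa4l2. The 7 nuclear core subunits, which form the arm with the flavin and the iron-sulfur clusters, included 5 that fell, led by Ndufs8 at −1.05 ± 0.09, and Ndufs3, which rose by 0.29 ± 0.06, a call lost with no scaling factors. The weakest of the 5, Ndufv1, lost its call in 4 of 9 fits that left out 1 library. The subunits named Ndufb, which sit in the membrane arm, moved together: all 11 tested fell, with changes between −1.40 for Ndufb4 and −0.19 for Ndufb5, although the calls of Ndufb1 and Ndufb5 were lost with DESeq2, without IL-1β library 2 or 3, and without control library 2.

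Ndufb4 (ENSMUSG00000022820, chromosome 16), an accessory subunit of the membrane arm, stood at 10.4, 10.3 and 7.34 CPM in the IL-1β libraries and at 22.3, 27.0 and 24.6 CPM in the control libraries. This was a change of −1.40 ± 0.11 (adjusted p = 1.61e-11), and no IL-1β library reached the lowest control. Ndufb7, which lies on the outer face of the membrane, had 12.8, 10.4 and 14.0 CPM with IL-1β and 29.6, 32.1 and 30.7 CPM in controls, and Ndufs5, another accessory subunit, had 17.8, 19.2 and 15.4 CPM with IL-1β and 39.8, 41.1 and 42.2 CPM in controls. Both fell more than 2-fold.

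Other genes assigned to complex I by name went the opposite way. Ndufa4l2 (ENSMUSG00000040280, chromosome 10), a relative of Ndufa4 known as a hypoxia-inducible gene that lowers complex I activity, had 224, 227 and 256 CPM with IL-1β and 71.5, 67.7 and 72.7 CPM in controls, a rise of 1.74 ± 0.05 or 3.34-fold (adjusted p = 7.44e-21). Ndufv3 (ENSMUSG00000024038, chromosome 17), an accessory subunit of the NADH-oxidising arm, had 86.5, 80.6 and 82.1 CPM with IL-1β and 42.1, 42.9 and 47.1 CPM in controls, a rise of 0.92 ± 0.06 (adjusted p = 8.21e-14). The groups did not overlap for either gene. The other 4 that rose, Ndufc2, Ndufs3, Ndufa10 and Ndufab1, changed by 0.16 to 0.41 on the log2 scale, and the call of Ndufa10 was lost with no scaling factors. Ndufab1, the mitochondrial acyl carrier protein, is uncertain. Its call was lost without control library 1 or 2, without IL-1β library 1 and with upper-quartile or no scaling factors, and 2 pseudogene copies, Gm4459 and Ndufab1-ps, held counts equal to 16.7% of its own. Copies also touch Ndufa12, whose copy held 114% of its counts, and Atp5l, whose copies held 25.3%, nearly all of it in Gm10221.

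The 8 assembly factors of complex I were lower in part. Ndufaf7, a methyltransferase that acts on a core subunit, had 10.7, 12.3 and 13.6 CPM with IL-1β and 23.0, 24.4 and 23.8 CPM in controls and fell by 0.96 ± 0.09 (adjusted p = 5.84e-10). Ndufaf1, a subunit of the assembly complex for the membrane arm, had 15.6, 17.2 and 16.3 CPM with IL-1β and 13.6, 12.1 and 12.2 CPM in controls and rose by 0.38 ± 0.09 (adjusted p = 0.000731), a call that was lost when no scaling factors were used. In all 4 fell, 1 rose and 3 were not called, and the call of Ndufaf5 was lost in 7 of 9 fits without 1 library.

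Complex II, succinate dehydrogenase, has subunits of the nuclear genome alone, and its 4 genes did not change alike. Sdhb (ENSMUSG00000009863, chromosome 4), the iron-sulfur subunit, had 27.1, 25.2 and 27.6 CPM with IL-1β and 58.2, 62.7 and 63.9 CPM in controls. It fell 2.31-fold (log2 change −1.21 ± 0.06, adjusted p = 2.13e-15), with a wide gap between the groups. Sdha, the flavoprotein subunit that binds succinate, had 128, 128 and 128 CPM with IL-1β and 143, 136 and 138 CPM in controls, a change of −0.11 ± 0.04 whose call was lost with DESeq2, without any 1 of the IL-1β libraries and without control library 1. The membrane anchors were not called: Sdhc had 60.9, 61.8 and 59.3 CPM with IL-1β and 62.6, 69.1 and 63.5 CPM in controls, and Sdhd had 63.4, 62.5 and 63.6 CPM with IL-1β and 55.9, 61.8 and 59.7 CPM in controls. The lower transcript of the iron-sulfur subunit thus stood beside flavoprotein and anchor transcripts that changed by at most 0.11 on the log2 scale. The anchors depended on scaling: with no factors both were called lower, Sdhd at −0.15, and Sdhd was called higher at 0.12 with scaling by relative log expression.

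Complex III passes electrons from ubiquinol to cytochrome c. Of its 9 nuclear genes 8 fell and 1 rose, with a median of −0.46. Uqcr11, a small accessory subunit, had 23.4, 20.7 and 19.2 CPM with IL-1β and 31.1, 34.4 and 37.2 CPM in controls, a change of −0.70 ± 0.08 (adjusted p = 4.22e-08). Uqcrfs1 (ENSMUSG00000038462, chromosome 13), the Rieske iron-sulfur protein, was the one that rose: it had 49.0, 53.0 and 54.5 CPM with IL-1β and 38.0, 37.6 and 38.2 CPM in controls, a change of 0.46 ± 0.06 (adjusted p = 2.53e-07). The partner of the Rieske protein in electron transfer, cytochrome c1 encoded by Cyc1, fell by 0.52 ± 0.06. Cycs, the soluble cytochrome c, had 24.3, 26.5 and 28.1 CPM with IL-1β and 37.6, 37.7 and 37.4 CPM in controls and fell by 0.51 ± 0.07 (adjusted p = 1.39e-07). The libraries of the groups did not overlap for any of these 4 genes. Of the weaker falls in complex III, Uqcrh lost its call without IL-1β library 3, and Uqcrq without that library or control library 1 and with DESeq2.

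Complex IV, cytochrome c oxidase, had many general subunits with little change. Of 15 nuclear genes tested 8 fell, 1 rose and 6 were not called, and the median was −0.21. Cox6a1 (ENSMUSG00000041697, chromosome 5), the general form of an accessory subunit, had 55.3, 54.0 and 50.4 CPM with IL-1β and 106, 109 and 109 CPM in controls, and fell 2.03-fold (log2 change −1.02 ± 0.05, adjusted p = 4.12e-16). Cox4i1, the general form of the largest nuclear subunit, had 127, 122 and 110.0 CPM with IL-1β and 171, 169 and 169 CPM in controls and fell by 0.51 ± 0.05 (adjusted p = 5.6e-10). In contrast Cox5a, Cox6b1, Cox6c, Cox7b and Cox7c, all general subunits, had changes between −0.06 and 0.06 and were not called, although each was called lower with no scaling factors. Cox8a, another small general subunit, had 91.6, 86.6 and 95.0 CPM with IL-1β and 82.5, 80.6 and 85.1 CPM in controls and was called higher at 0.14 ± 0.05. That direction turned to −0.01 with upper-quartile scaling and to −0.10 with no factors, and it was called in neither.

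Complex V divides into the F1 head, which makes ATP, the ring of c subunits, which turns as protons pass, and the stalk and membrane parts. Of 17 genes tested 12 fell and 5 were not called, with a median of −0.28. The call of Atp5b was lost in 5 of 9 fits without 1 library, that of Atp5pb in 4 and with DESeq2, and that of Atp5l in 1. The 5 genes of the F1 head changed little except for one: Atp5d, Atp5c1, Atp5b and Atp5a1 lay between −0.16 and 0.07, and Atp5e fell by 0.79 ± 0.07. The c ring is made from 3 genes, Atp5g1, Atp5g2 and Atp5g3, which differ in their import sequence and encode the same mature protein. All 3 fell, by different amounts.

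Atp5g1 (ENSMUSG00000006057, chromosome 11) had 13.2, 12.9 and 11.1 CPM with IL-1β and 53.9, 54.2 and 57.0 CPM in controls, a 4.45-fold fall (log2 change −2.15 ± 0.08, adjusted p = 1.12e-18). Atp5g2 had 40.2, 38.9 and 37.2 CPM with IL-1β and 67.8, 69.8 and 77.0 CPM in controls, and fell by 0.88 ± 0.06. Atp5g3 had 60.5, 53.8 and 54.3 CPM with IL-1β and 72.7, 78.5 and 81.3 CPM in controls, and fell by 0.46 ± 0.06. For each of the 3 genes every IL-1β library lay below every control. A pseudogene, Gm10039, with 99.8% identity to Atp5g1 over 411 bases held counts equal to 48.3% of those of Atp5g1, so reads may have been divided between them. Its own change was −2.06. With the copy added, Atp5g1 stood at 20.3, 19.8 and 15.8 CPM with IL-1β and at 77.5, 81.6 and 83.5 CPM in controls, so its level relative to those of Atp5g2 and Atp5g3 is uncertain, while its IL-1β libraries still lay below every control.

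**Figure D2:**
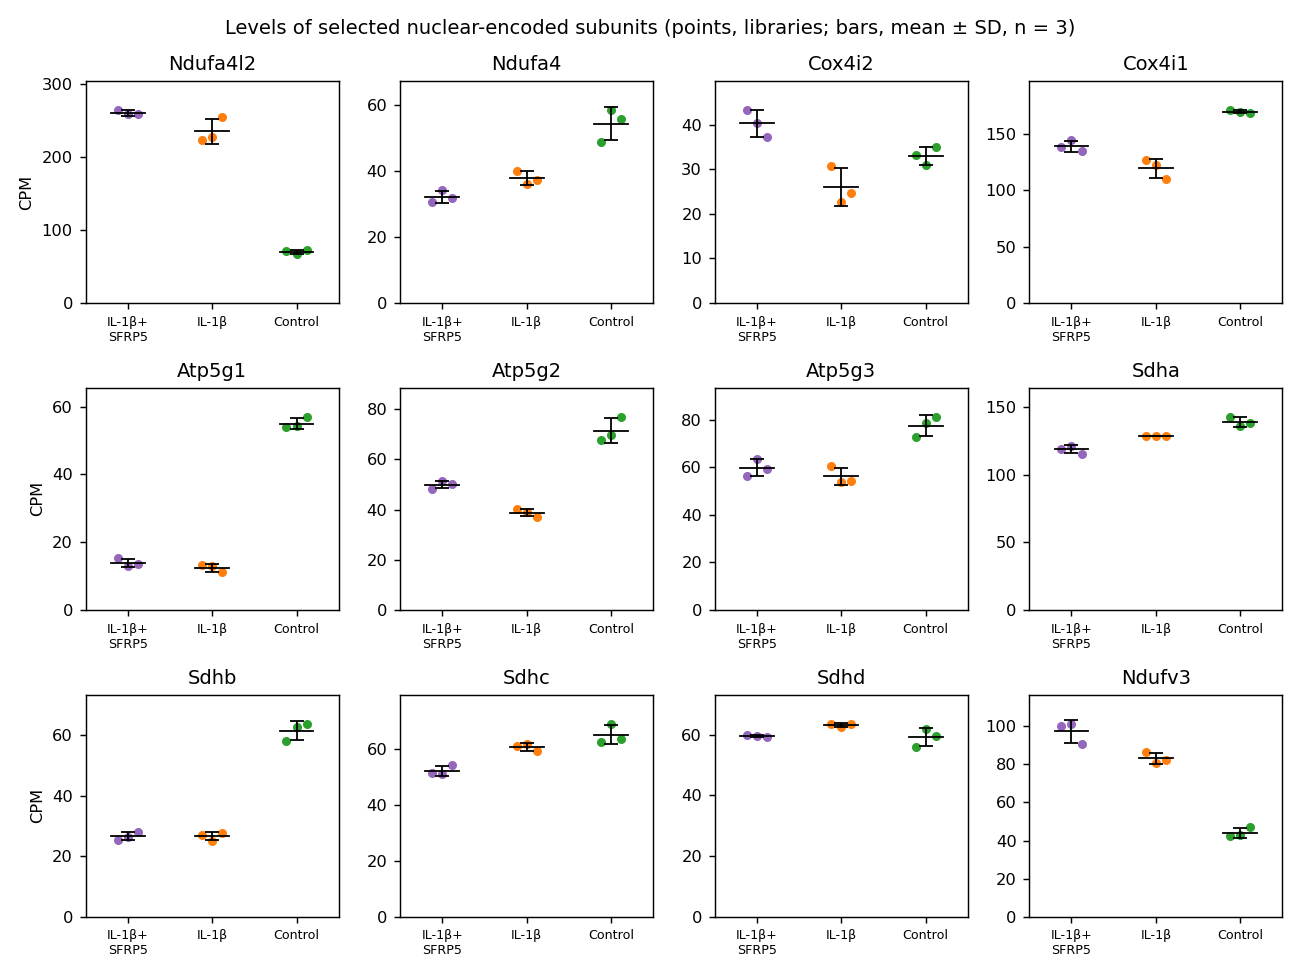
CPM of 12 nuclear-encoded genes in each library, with the mean ± SD of 3 libraries per group (IL-1β with SFRP5, IL-1β, control). Atp5g1 and Sdhb stand lower and Ndufa4l2 and Ndufv3 higher in both treated groups than in controls, and the Cox4i2 libraries with SFRP5 stand above those with IL-1β alone.

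Several subunits have a second gene used in particular tissues or at low oxygen, and these pairs were compared per kilobase of the gene length in the table. Ndufa4, the general relative of Ndufa4l2 that is now counted with complex IV, had 40.1, 36.2 and 37.5 CPM with IL-1β and 48.9, 58.6 and 55.8 CPM in controls and fell by 0.52 ± 0.07. The level of Ndufa4l2 per kilobase was 10.2 ± 0.70 times that of Ndufa4 with IL-1β and SFRP5, 7.85 ± 0.78 times with IL-1β and 1.65 ± 0.19 times in controls (SD, n = 3 each). The pair was thus further on the side of Ndufa4l2 in every treated library than in any control. Cox4i2, the form of the largest nuclear complex IV subunit known from lung and from low oxygen, did not follow: it had 30.7, 22.6 and 24.6 CPM with IL-1β and 33.1, 30.9 and 34.9 CPM in controls and fell by 0.34 ± 0.09. Per kilobase it stood at 0.569 ± 0.041 of Cox4i1 with IL-1β and SFRP5, 0.427 ± 0.057 with IL-1β and 0.382 ± 0.024 in controls.

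The other alternative forms were scarce. Cox6a2, the muscle form of Cox6a1, had 2.43, 2.60 and 3.75 CPM with IL-1β and 6.06, 5.14 and 5.94 CPM in controls, a fall of 0.95 ± 0.20. Its ratio to Cox6a1 per kilobase was 0.0503 ± 0.016 with IL-1β and SFRP5, 0.0573 ± 0.017 with IL-1β and 0.0547 ± 0.0054 in controls, which overlap. The summed level of the 8 skeletal muscle markers was also lower with IL-1β, with 4 of 4 tested markers called, and their part in this result was not tested. Cox6b2, the testis form of Cox6b1, was near the limit, with 0.182, 0.121 and 0.284 CPM with IL-1β and 1.67, 0.992 and 1.22 CPM in controls, a change of −2.66 ± 0.48, whereas Cox6b1 was not called at −0.03 ± 0.06. Cox7a1, the muscle form, had 3 to 10 counts in each library and was not tested, while its general partner Cox7a2 fell by 0.21 ± 0.06. Cox8b had 1 count in each of 2 control libraries. Cox7b2, Cox8c, Ndufb11b and a second entry named Atp5o had 0 counts in every library, where 3 counts would equal 0.145 to 0.19 CPM of the unscaled library total, and Cox7b, the general partner of Cox7b2, was not called at 0.06 ± 0.07.

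Genes of the mitochondrial genome moved in both directions. Its genes for complexes III and IV with many counts were higher with IL-1β, and most of its complex I genes were lower. mt-Cytb (ENSMUSG00000064370), cytochrome b of complex III, had 3047, 3019 and 2563 CPM with IL-1β and 1983, 1997 and 1998 CPM in controls, a rise of 0.53 ± 0.04 (adjusted p = 4.83e-11). mt-Co1 (ENSMUSG00000064351), the catalytic subunit of complex IV, had the highest CPM per kilobase of any member in every group. This ranks assigned counts only, because genes with the near-identical nuclear copies described below may be undercounted. mt-Co1 had 7299.7, 7442 and 6755 CPM with IL-1β and 5261, 5146 and 5205 CPM in controls, a rise of 0.46 ± 0.03 (adjusted p = 1.42e-12). For both genes every IL-1β library lay above every control.

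Complex I genes of the same strand did the opposite. mt-Nd2 (ENSMUSG00000064345), a proton-pumping subunit, had 171, 170.3 and 174 CPM with IL-1β and 745, 754 and 749.6 CPM in controls. It fell 4.37-fold (log2 change −2.13 ± 0.04, adjusted p = 2.21e-24), the lowest change of any mitochondrial gene tested, and the replicates of each group lay close together. mt-Nd5, another pumping subunit, had 1656, 1686 and 1533 CPM with IL-1β and 2441, 2313 and 2142 CPM in controls and fell by 0.50 ± 0.04. mt-Nd1, which lies next to mt-Nd2 in the mitochondrial genome, had 1085, 1161 and 1178 CPM with IL-1β and 1250.2, 1238 and 1277 CPM in controls and fell by 0.14 ± 0.04, a call lost without IL-1β library 1. mt-Nd4 had 1081, 1075 and 996 CPM with IL-1β and 999, 993 and 993 CPM in controls. It was called higher at 0.08 ± 0.03, but not without any 1 of the control libraries or without IL-1β library 1 or 2, and it turned to −0.07 with upper-quartile scaling and −0.17 with no factors.

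Expressed as shares of all mitochondrial protein-gene counts, which do not depend on scaling between libraries, mt-Nd2 made up 1.10% ± 0.077 with IL-1β and SFRP5, 1.22% ± 0.077 with IL-1β and 5.97% ± 0.11 in controls (SD, n = 3 each). mt-Nd5 made up 11.4% ± 0.25 with IL-1β and SFRP5, 11.5% ± 0.027 with IL-1β and 18.3% ± 0.97 in controls. The share of mt-Co1 was 51.6% ± 0.37 with IL-1β and SFRP5, 50.9% ± 0.14 with IL-1β and 41.4% ± 0.41 in controls, and that of mt-Cytb was 20.3% ± 0.34 with IL-1β and SFRP5, 20.4% ± 0.95 with IL-1β and 15.9% ± 0.27 in controls. The mix of assigned mitochondrial counts therefore differed between treated and control cells by more than the spread between libraries. Reads shared with near-identical nuclear copies may be missing from these shares.

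mt-Nd6 (ENSMUSG00000064368), the one protein gene on the opposite strand, had 17.8, 13.4 and 17.3 CPM with IL-1β and 37.5, 35.4 and 33.0 CPM in controls and fell by 1.12 ± 0.10 (adjusted p = 6.53e-11). The library kit keeps the strand, but no source used here says whether counting used it, so reads of the strand opposite mt-Nd6 may be among its counts. The remaining genes had few counts. mt-Co2 had 19.5, 17.9 and 30.8 CPM with IL-1β and 12.9, 21.3 and 14.1 CPM in controls, mt-Co3 had 8.38, 8.47 and 7.73 CPM with IL-1β and 7.27, 9.47 and 7.15 CPM in controls, and mt-Atp6 had 5.34, 4.78 and 3.92 CPM with IL-1β and 8.33, 6.81 and 5.23 CPM in controls. mt-Nd3 had 0.971, 1.09 and 0.512 CPM with IL-1β and 2.27, 1.94 and 1.22 CPM in controls, mt-Nd4l had 0.910, 0.847 and 1.02 CPM with IL-1β and 0.656, 1.35 and 0.812 CPM in controls, and mt-Atp8, with at most 4 counts in a library and not tested, had 0.243, 0.242 and 0.171 CPM with IL-1β and 0.101, 0.0451 and 0 CPM in controls. The groups overlapped for mt-Co2, mt-Co3, mt-Atp6 and mt-Nd4l and did not overlap for mt-Nd3, which was lower with IL-1β, or for mt-Atp8, which was higher.

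The low genes are uncertain. In a GENCODE M21 annotation, mt-Co2, mt-Co3, mt-Atp6, mt-Nd3 and mt-Nd4l each have a pseudogene copy on nuclear chromosome 1, with 99.7% to 100% identity over 294 to 783 bases, and counts were also given to these copies. The copy of mt-Atp6, Gm10925, held 149% of the counts of mt-Atp6 itself, and that of mt-Nd4l held 93.0% of its counts. The calls of mt-Co2 (0.50 ± 0.16), mt-Atp6 (−0.54 ± 0.18) and mt-Nd3 (−1.08 ± 0.42) were each lost without control library 1 and without IL-1β library 3, and those of mt-Co2 and mt-Nd3 also with DESeq2. The call of mt-Nd3 was lost without control library 2 as well, and that of mt-Co2 with upper-quartile or no scaling factors. Copies of the abundant genes held few counts. Those of mt-Co1 held 0.071% of its counts and that of mt-Nd4 0.488%. The copy of mt-Nd2, Gm13339, had 6 counts in all libraries together against 62431 of mt-Nd2. Such shares do not measure reads that match a gene and its copy alike and may have been counted for neither. The copy of mt-Nd4, Gm28439, had 100% identity to it over 876 bases.

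**Figure D3:**
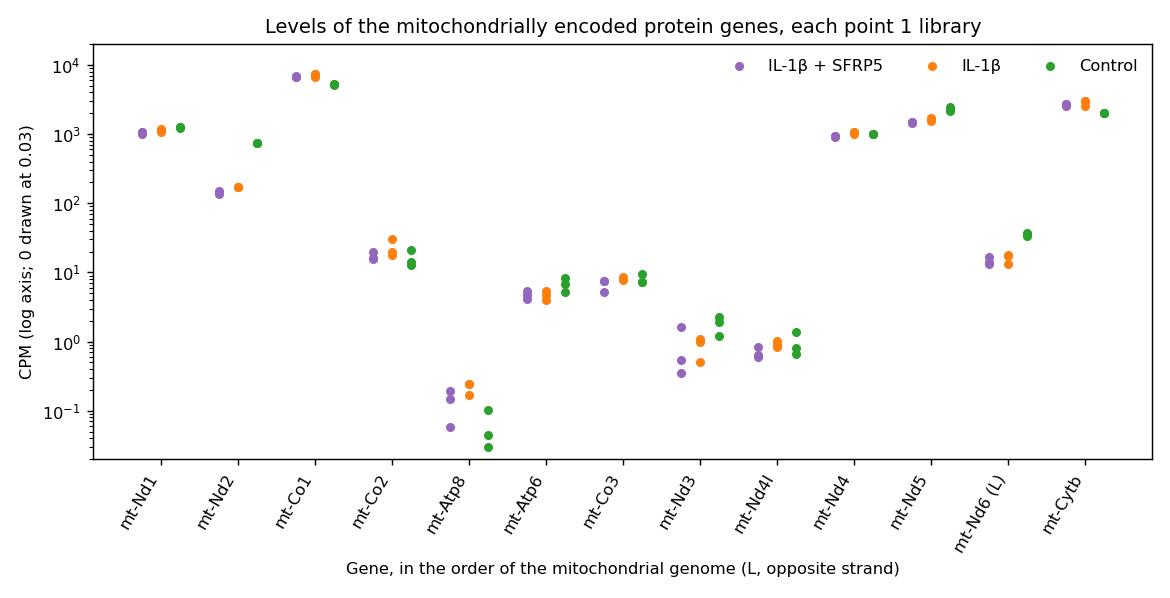
CPM of the 13 mitochondrially encoded protein genes in each library, on a log axis, in their order along the mitochondrial genome. Points of mt-Nd2 lie near 750 CPM in controls and near 170 or lower in both treated groups, those of mt-Co1 and mt-Cytb lie higher in treated than in control libraries, and 7 genes have fewer than 40 CPM in every library with mt-Atp8 lowest.

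Nuclear and mitochondrial members also differed as sums of assigned counts, from which reads shared with near-identical copies may be missing. The 99 nuclear members held 0.432% ± 0.0085 of all counts with IL-1β and SFRP5, 0.408% ± 0.0050 with IL-1β and 0.559% ± 0.016 in controls (SD, n = 3 each). The 13 mitochondrial members held 1.28% ± 0.019 with IL-1β and SFRP5, 1.31% ± 0.053 with IL-1β and 1.38% ± 0.017 in controls. The ratio of nuclear to mitochondrial counts was 0.334 to 0.340 with IL-1β and SFRP5, 0.301 to 0.327 with IL-1β and 0.388 to 0.420 in controls, so the 3 groups did not overlap, and this ratio does not depend on scaling between libraries. The direction of the mitochondrial sum does. As a share of unscaled counts every treated library lay below every control, whereas relative to TMM-corrected library sizes the sum was 1.28% to 1.34% with IL-1β and SFRP5, 1.33% to 1.46% with IL-1β and 1.24% to 1.27% in controls, with every treated library above every control. On that scale the nuclear sum was 0.428% to 0.451% with IL-1β and SFRP5, 0.433% to 0.448% with IL-1β and 0.494% to 0.522% in controls, lower in every treated library as before. The 2 mitochondrial ribosomal RNAs took 0.0170% to 0.0182% of counts with IL-1β and SFRP5, 0.0178% to 0.0202% with IL-1β and 0.0387% to 0.0407% in controls. Per kilobase, mt-Co1 had 4365 CPM with IL-1β and SFRP5, 4638 CPM with IL-1β and 3368 CPM in controls, while the highest nuclear member had 238 CPM (Ndufa4l2), 215 CPM (Ndufa4l2) and 154 CPM (Cox6a1) in the same groups.

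**Figure D4:**
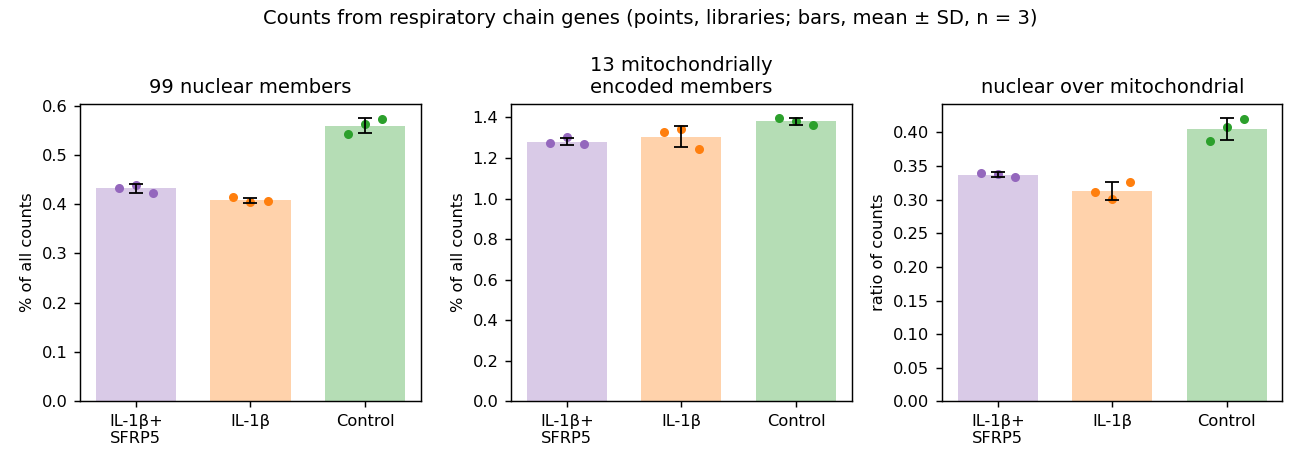
Share of all counts, unscaled, taken by the nuclear members (left) and the mitochondrially encoded members (middle), and the ratio of nuclear to mitochondrial counts (right). Points are libraries and bars the mean ± SD of 3 libraries per group, and the nuclear share is lower in both treated groups than in controls while the mitochondrial share differs little.

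Promoters of the nuclear members were set beside their changes, because nuclear respiratory factor 1 (NRF1) and the ETS-type factor GABP (NRF2) are known to bind the promoters of many of these genes. RefSeq promoter windows of GRCm38.p6, from 250 bases before to 50 bases after the gene start, matched 78 of the 98 distinct nuclear symbols. A gene was counted where any of its windows held the core. The NRF1 core CGCATGCG, which reads the same on either strand, was found in 12 members (15.4%), against 2.07% of 27025 genes with a window. The ETS core CCGGAAG, on either strand, was found in 19 (24.4%), against 9.93% of all genes, and the hypoxia response core ACGTG in 20 (25.6%), against 21.8%. None of the 3 cores contains another. Of 12 tested members with the NRF1 core 10 fell and 2 were not called, with a median change of −0.49. Of 63 without it 43 fell, 8 rose and 12 were not called, with a median of −0.36. With the ETS core 11 fell, 3 rose and 5 were not called of 19 (median −0.28), and without it 42 fell, 5 rose and 9 were not called of 56 (median −0.41). With the hypoxia response core 14 fell, 1 rose and 3 were not called of 18 (median −0.26), and without it 39 fell, 7 rose and 11 were not called of 57 (median −0.45).

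The windows of 4 genes were chosen to stand for the different outcomes with IL-1β, 5′ to 3′ along the gene, with NRF1 and ETS cores in capitals. They are Cox6a1, which fell and holds both cores (chr5:115348909-115349208, minus strand), Sdhb, which fell and holds an ETS core (chr4:140961021-140961320, plus strand), Atp5g1, which fell the furthest of these 4 and holds neither (chr11:96075582-96075881, minus strand), and Ndufv3, which rose and holds neither (chr17:31519865-31520164, plus strand).
Cox6a1: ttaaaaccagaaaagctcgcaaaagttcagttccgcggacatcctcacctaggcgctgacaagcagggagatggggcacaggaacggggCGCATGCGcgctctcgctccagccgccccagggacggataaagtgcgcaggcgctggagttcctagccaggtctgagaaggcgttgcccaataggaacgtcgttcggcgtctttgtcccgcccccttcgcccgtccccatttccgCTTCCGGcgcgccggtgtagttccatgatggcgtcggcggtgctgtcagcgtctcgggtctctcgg
Sdhb: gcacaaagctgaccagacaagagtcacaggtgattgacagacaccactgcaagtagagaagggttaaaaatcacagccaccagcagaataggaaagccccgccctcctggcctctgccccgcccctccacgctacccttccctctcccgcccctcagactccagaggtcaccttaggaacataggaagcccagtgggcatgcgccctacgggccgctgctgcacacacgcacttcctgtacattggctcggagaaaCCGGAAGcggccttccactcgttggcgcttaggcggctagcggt
Atp5g1: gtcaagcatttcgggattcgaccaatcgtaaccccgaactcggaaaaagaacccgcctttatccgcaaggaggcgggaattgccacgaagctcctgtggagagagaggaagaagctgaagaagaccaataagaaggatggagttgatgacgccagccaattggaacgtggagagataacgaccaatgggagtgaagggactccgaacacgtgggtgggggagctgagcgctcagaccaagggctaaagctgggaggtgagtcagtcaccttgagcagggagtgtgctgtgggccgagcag
Ndufv3: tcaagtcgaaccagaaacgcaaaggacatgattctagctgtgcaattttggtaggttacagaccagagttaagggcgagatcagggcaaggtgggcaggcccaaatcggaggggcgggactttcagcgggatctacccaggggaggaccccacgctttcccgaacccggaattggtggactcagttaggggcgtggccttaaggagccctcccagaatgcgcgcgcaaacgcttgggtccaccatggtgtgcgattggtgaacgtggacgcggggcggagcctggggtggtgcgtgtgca
A match describes the letters of a window, and the cores were thus present in genes that fell and absent from genes that fell and from one that rose.

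Other genes that act on the respiratory chain were read from lists by function, chosen with earlier results of these data known. Their shares beside those of all genes are therefore a description only. Assembly factors of all 5 complexes outside the members showed both directions: of 44 tested, 10 rose, 19 fell and 15 were not called with IL-1β, with a median change of −0.14. The 65.9% of them that were called lay below the 78.9% of all genes. Among them Atpaf1, a chaperone of the F1 head, fell by 1.38 while its partner Atpaf2 rose by 1.01, and Sdhaf4, which assists the flavoprotein of complex II, fell by 1.89. The low-oxygen list of 11 genes, which includes the members Ndufa4l2 and Cox4i2, had 8 genes that rose and 3 that fell. These were 72.7% and 27.3% of its genes against 38.5% and 40.4% of all genes. Its median of 1.74 is the value of Ndufa4l2 itself. Egln3, an oxygen sensor, rose by 5.92, the mitophagy receptors Bnip3 and Bnip3l by 3.19 and 3.15, and Pdk1, a kinase that inhibits pyruvate dehydrogenase, by 2.17. Cox4i2, Iscu and Fundc1 fell with IL-1β. Iscu is a scaffold for iron-sulfur clusters and changed by −0.50.

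Factors of the mitochondrial genome itself were mixed. Of 16 genes for its transcription and copying 5 rose, 4 fell and 7 were not called, so 56.2% were called against 78.9% of all genes. Polrmt, the mitochondrial RNA polymerase, fell by 0.66 and Tfam, which packs the DNA and starts transcription, was not called at −0.17, while Mgme1, a nuclease, rose by 2.28. Of 16 genes for the processing of mitochondrial RNA 9 rose, 1 fell and 6 were not called, with a median of 0.27, so that 56.2% were called higher and 6.25% lower, against 38.5% and 40.4% of all genes. Fastkd3, an RNA-binding protein of mitochondria, rose by 2.21, the poly(A) polymerase Mtpap by 1.13 and Trmt10c, a part of the enzyme that cuts transfer RNAs from the long transcript, by 1.36. Slirp, a partner of Lrpprc in RNA stability, was the one that fell, by 1.05, and Lrpprc was not called at −0.06. Of 9 regulators of nuclear respiratory genes tested 4 rose, 2 fell and 3 were not called, 66.7% being called. Nrf1 rose by 1.10 and the coactivator Pprc1 fell by 1.66. Of 7 tested carriers, channels and uncoupling proteins 2 rose, 2 fell and 3 were not called, 57.1% being called. Both shares lay below the 78.9% of all genes. Slc25a4, an ADP/ATP carrier, fell by 1.39 and Vdac1, a channel of the outer membrane, rose by 2.01. Counts in these lists were made with TMM factors alone, and the shift of −0.24 without factors is about as large as the list medians of −0.14 and 0.27.

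Cells given both IL-1β and SFRP5 were then set against cells given IL-1β alone, to ask what SFRP5 added. Nuclear members moved little and in both directions, and the abundant mitochondrial genes were slightly lower with SFRP5. Of 93 nuclear members 16 rose, 13 fell and 64 were not called, against 31.3% of all genes called, 15.6% as higher and 15.7% as lower. No member was called with a 2-fold change, against 2.21% of all genes called at least 2-fold higher and 1.91% at least 2-fold lower. The 6 mitochondrial genes with the most counts were all called lower, by 0.09 to 0.26 on the log2 scale, and none of the 12 tested was called higher by edgeR, by DESeq2 or at an unadjusted p under 0.05. With no scaling factors, 2 mitochondrial genes were called lower. The largest change among called members was the rise of Cox4i2.

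With 35 of 105 tested members called, the share was again close to that of all genes. Their medians were 0.02 for nuclear and −0.13 for mitochondrial members, against 0.01 over all genes. The split of the nuclear calls depended on scaling and on libraries: it was 26 higher and 1 lower with no scaling factors, 13 and 8 with DESeq2, and 16 and 5 without library 3 of the group with SFRP5. Of the 35 calls, 13 held in every fit that left out 1 library. The calls that held under every other setting as well, 11 in all, included higher calls for Cox4i2, Cox4i1, Cox7a2l, Ndufs7, Ndufv3, Ndufaf3 and Atp5g2, and lower calls for Cox7a2, mt-Nd2 and mt-Nd4.

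Cox4i2 (ENSMUSG00000009876, chromosome 2) had 43.3, 40.3 and 37.2 CPM with IL-1β and SFRP5 and 30.7, 22.6 and 24.6 CPM with IL-1β alone, a rise of 0.64 ± 0.09 or 1.55-fold (adjusted p = 2.28e-06). Its partner Cox4i1 had 138, 144 and 135 CPM with SFRP5 and 127, 122 and 110.0 CPM with IL-1β alone, a smaller rise of 0.22 ± 0.05 (adjusted p = 0.00108). For both genes every library with SFRP5 was above every library with IL-1β alone. Cox7a2, the general form of a subunit at the contact with complex III, had 31.4, 34.2 and 34.0 CPM with SFRP5 and 42.1, 38.5 and 39.9 CPM with IL-1β alone, and fell by 0.28 ± 0.06 (adjusted p = 0.000904). Its relative Cox7a2l, known as a factor that joins complexes III and IV, had 139.8, 147 and 131 CPM with SFRP5 and 123, 127 and 115 CPM with IL-1β alone, a rise of 0.19 ± 0.05. Complex IV thus held calls of both directions, with 4 higher and 5 lower of 15 tested, against 15.6% higher and 15.7% lower of all genes. DESeq2 called 4 higher and 3 lower. Of the lower calls, Cox8a was lost in 8 of 9 fits without 1 library, Cox5a in 6, Cox7c in 3 and Cox6c in 2. Of the higher calls, Cox6a1 was lost in 2.

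Complex I had 9 genes higher and 4 lower of 39, and 7 and 2 with DESeq2. Ndufs7, a core subunit with an iron-sulfur cluster, had 20.1, 17.9 and 18.3 CPM with SFRP5 and 15.1, 15.1 and 13.4 CPM with IL-1β alone, a rise of 0.38 ± 0.10 (adjusted p = 0.00364). The assembly factor Ndufaf3 had 8.77, 10.1 and 10.3 CPM with SFRP5 and 7.22, 7.62 and 6.20 CPM with IL-1β alone, a rise of 0.47 ± 0.12 (adjusted p = 0.00493). Neither gene overlapped between the groups. Ndufa3, a membrane-arm subunit, had 14.9, 16.3 and 18.2 CPM with SFRP5 and 20.2, 20.7 and 18.0 CPM with IL-1β alone, which overlap, and its fall of 0.26 ± 0.09 was not called with DESeq2, with no scaling factors, or without IL-1β library 1 or 2 or library 1 or 2 of the group with SFRP5. Ndufa4l2, with 265, 259 and 259 CPM with SFRP5 and 224, 227 and 256 CPM with IL-1β alone, was called at 0.15 ± 0.05, but not without IL-1β library 1 or 2 or SFRP5 library 1.

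In the other complexes few genes were called. Atp5g2 had 48.3, 51.4 and 50.2 CPM with SFRP5 and 40.2, 38.9 and 37.2 CPM with IL-1β alone, a rise of 0.37 ± 0.06 (adjusted p = 2.35e-05), whereas Atp5g1 at 0.17 ± 0.09 and Atp5g3 at 0.09 ± 0.06 were not called. Sdhc fell by 0.22 ± 0.05, a call lost with no scaling factors, and Sdhb had 25.5, 26.5 and 28.1 CPM with SFRP5, a change of 0.00 ± 0.07 against IL-1β. Of the 9 complex III genes edgeR called 0, with 1 at an unadjusted p under 0.05, and DESeq2 also called 0. The assembly factors outside the members had 3 genes higher, 3 lower and 38 not called of 44, so 13.6% were called, against 31.3% of all genes.

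Among the mitochondrial genes mt-Nd2 had 135, 143 and 152 CPM with SFRP5 and 171, 170.3 and 174 CPM with IL-1β alone, a fall of 0.26 ± 0.04 (adjusted p = 2.6e-05) with no overlap. mt-Nd4 had 929.6, 947 and 920.0 CPM with SFRP5 and 1081, 1075 and 996 CPM with IL-1β alone, a fall of 0.17 ± 0.03 (adjusted p = 0.000387), also with no overlap. The falls of mt-Nd1 (0.12 ± 0.04), mt-Nd5 (0.13 ± 0.04), mt-Cytb (0.12 ± 0.04) and mt-Co1 (0.09 ± 0.03) were smaller, and the groups overlapped for mt-Cytb and mt-Co1. Each of these 4 calls was lost with no scaling factors, without IL-1β library 2 and without SFRP5 library 1, among others. The call of mt-Cytb was lost in 8 of 9 fits without 1 library, that of mt-Co1 in 5, and those of mt-Nd1 and mt-Nd5 in 3 each.

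Cells given IL-1β and SFRP5 were last set against controls, a comparison that shares its control libraries with that of IL-1β alone. Of the nuclear members 9 rose, 68 fell and 16 were not called, with a median of −0.35 against −0.02 over all genes, of which 76.3% were called, 37.3% as higher and 39.0% as lower. By class, 29 of 39 complex I genes, 8 of 9 complex III genes, 9 of 15 complex IV genes and 15 of 17 complex V genes fell. DESeq2 called 26, 8, 7 and 14 of them lower. Ndufs7, Cox5a and Cox6c each lost their call in 7 of 9 fits without 1 library, and Atp5md in 8. Of the mitochondrial genes 2 rose, 7 fell and 3 were not called. Assembly factors outside the members had 7 genes higher and 18 lower of 44, 56.8% in all. The low-oxygen list, which includes Ndufa4l2 and Cox4i2, had 9 higher and 2 lower of 11. Against controls, Atp5g1 changed by −1.98 ± 0.08 with IL-1β and SFRP5 and by −2.15 ± 0.08 with IL-1β alone. Sdhb changed by −1.21 ± 0.06 with SFRP5 and by −1.21 ± 0.06 without, and mt-Nd2 by −2.39 ± 0.04 with SFRP5 and −2.13 ± 0.04 without. For Ndufa4l2 the changes were 1.89 ± 0.05 with SFRP5 and 1.74 ± 0.05 without, and for Ndufv3 1.14 ± 0.06 with SFRP5 and 0.92 ± 0.06 without. Ndufv3 stood at 100.2, 101 and 90.5 CPM with both proteins, 2.21-fold above controls. With both proteins Atp5g1 had 15.2, 12.9 and 13.6 CPM, Ndufb4 had 10.4, 11.0 and 11.4 CPM and Cox6a1 had 61.3, 57.8 and 59.6 CPM, all below every control library. mt-Cytb had 2681, 2718 and 2564 CPM, mt-Co1 had 6716, 6942 and 6572 CPM and mt-Nd5 had 1457, 1508 and 1499 CPM, with the first 2 above and the last below every control library. Cox4i2 was above controls at 0.29 ± 0.08 with both proteins, though this call was lost with upper-quartile scaling and with no factors, and below them at −0.34 ± 0.09 with IL-1β alone.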

How the data were processed

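RNA of mouse knee chondrocytes was sequenced from 9 libraries in 3 groups of 3. Per the labels' protocols, libraries were made with a directional (strand-keeping) kit and read as 150-base pairs, and per the submitters' processing notes fastp, STAR, RSEM and mm10 were used, in versions that no source used here states. The deposited table holds whole-number counts per gene made by the authors, and 0 columns of per-sample values were left unmapped.

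Counts were tested with edgeR 4.0.16 in R 4.3.3 (limma 3.58.1), fitted over all 9 libraries with TMM factors, the filterByExpr filter and the quasi-likelihood test. P-values were adjusted by Benjamini-Hochberg over 15502 genes, with calls under 0.05, and the biological coefficient of variation was 4.97%. CPM were computed here from the deposited counts. The fit was also run on simulated counts with few changed genes, balanced up and down. That run does not test the scaling of these data, and no result of it is used here. Levels of different genes were compared per kilobase of the deposited gene length.

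Members and lists were chosen with earlier results of these data known. Genes named with values were the mitochondrial genes, the highest and lowest nuclear member of each complex with IL-1β, the paralog pairs, and the 3 highest and 3 lowest called members with SFRP5. Others were chosen after their values were seen. Copies were sought with BLAST+ 2.17.0 in GENCODE M21 transcripts (at least 95% identity over 150 bases and over 50% of the copy), and promoter sequences are those of RefSeq. Only genes listed as pseudogenes and not themselves members were taken as copies. This left out Gm10053, listed as protein-coding, with 99.9% identity to Cycs over 946 bases and counts equal to 7.51% of its own. It also left out Cox5b-ps, with 99.2% identity to Cox5b over 390 bases and counts equal to 12.1% of those of Cox5b. The table's positions are not those of that annotation, so none is printed. Alternatives were relative log expression, upper-quartile or no scaling factors, TMM without mitochondrial genes, no filter, DESeq2 1.42.0, 6 libraries only, a replicate block, and leaving out each library.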

Additional observations from a re-analysis of the deposited data

How the results depend on the processing

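With IL-1β against controls, 65 of 85 calls among the members held in every fit without 1 library and 61 under every alternative. With SFRP5 added to IL-1β, 13 of 35 calls held without any 1 library and 11 under every alternative. With both proteins against controls, 72 of 86 held without any 1 library and 69 under every alternative. Scaling moved the medians together with those of all genes. With upper-quartile scaling, IL-1β against controls gave a nuclear median of −0.53, a mitochondrial median of −0.23 and 2 mitochondrial genes higher. With no scaling factors it gave a nuclear median of −0.62 with 4 genes higher, and a mitochondrial median of −0.33 with 2 higher. mt-Nd4 reversed to −0.069 and −0.167 in these settings, and Cox8a to −0.00759 and −0.104. Without 1 library the nuclear median ranged over −0.43 to −0.34, the mitochondrial median over −0.187 to −0.0345 and the mitochondrial genes higher over 2 to 4, with 2 without control library 1. With SFRP5 added to IL-1β, no scaling factors gave 26 nuclear members higher and 1 lower (median 0.10), 2 mitochondrial genes lower (median −0.052) and 1567 of all genes lower, and DESeq2 gave 8 nuclear members lower. Without 1 library, nuclear members lower ranged over 5 to 12 and mitochondrial genes lower over 2 to 6, with 8 nuclear members lower without IL-1β library 1, 6 without SFRP5 library 1 and 5 without SFRP5 library 3. The mitochondrial count was 3 without IL-1β library 2 and 2 without SFRP5 library 1. With both proteins against controls, upper-quartile scaling gave medians of −0.48 for nuclear and −0.49 for mitochondrial members, and no factors gave −0.51 with 5 nuclear members higher, and −0.52. Without 1 library the mitochondrial median ranged over −0.44 to −0.18. The cause of these changes was not tested. Named genes were compared singly with the main fit. Under the alternatives other than leaving out a library, 806 cases kept a call and its direction or stayed uncalled, whatever their direction. A call was gained, in either direction, in 24 cases and lost in 29, and a called gene turned direction in 4. Leaving out 1 library gave 887, 14 and 71 such cases, and no called gene turned direction. Uncalled genes could turn, as mt-Nd4l did with IL-1β against controls, from −0.23 to 0.33.

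Same-numbered libraries did not deviate together: their correlations were −0.04 to 0.04, and 0 of 9 pairs passed 0.1. In addition, 0 libraries correlated best with their own number in both other groups, so the numbers were not taken as pairs. With the replicate number as a block, IL-1β against controls gave 9 nuclear members higher and 66 lower, with 4 and 6 mitochondrial genes. The block gave 17 nuclear members higher and 12 lower, and 0 and 7 mitochondrial genes, for SFRP5 added to IL-1β. The low mitochondrial genes had under 40 CPM and, for most, near-identical copies elsewhere. This limits what can be said of the mitochondrial genes of complex V and of most of those of complex IV. Whether their low counts reflect the assignment of reads or scarce transcripts was not tested.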
